A study of Mus musculus with 8 samples.

Results

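Tmem163 and 8 other genes that move, store or sense zinc were examined in S0 cells of the mouse fetal liver. The 9 genes, out of 52636 counted, are Tmem163, the ZnT transporter genes Slc30a1, Slc30a5 and Slc30a10, the ZIP transporter genes Slc39a8 and Slc39a10, the metallothionein genes Mt1 and Mt2, and Mtf1. They were chosen by name, with their counts in these same libraries known, in order to see whether genes that answer to zinc follow Tmem163, and all 9 had enough counts to enter the fit. Their own differences between genotypes are therefore given as a description, with no test. S0 cells are the least mature subset that FACS separates on the erythroid path, negative for the lineage cocktail, for CD71 and for Ter119, and they were sorted in bulk from E12.5 livers and read by RNAseq. Libraries came from 4 WT samples and 4 DKO samples, the latter labelled as double knockouts of Vps13a and Vps13c, which encode bridge-like lipid transfer proteins. The Vps13a allele lost exon 6 in the whole body after FLP and β-actin-Cre recombination. The study's text gives intercrosses of Vps13a+/-;Vps13c-/- parents as the source of its embryos. That cross cannot yield an embryo WT for Vps13c, and the mating behind the WT libraries is not clear from the sources used here. Nothing read here states that each library was 1 embryo, and the spread between libraries may hold technical parts.

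Cells lower the zinc of the cytosol through ZnT proteins of the Slc30 family, which carry it out of the cell or into organelles, and raise it through ZIP proteins of the Slc39 family. TMEM163 is a membrane protein related to the ZnT carriers that binds zinc and moves it out of the cytosol, and it is best known from synaptic vesicles and lysosomes of the brain. MTF1 is the transcription factor that senses free zinc. It binds metal response elements before the metallothionein genes and Slc30a1, whose transcripts rise when zinc rises, and it represses Slc39a10. During erythroid maturation GATA factors are known to switch the pair of the importer Slc39a8 and the exporter Slc30a1. Metallothioneins, small cysteine-rich proteins that hold zinc and copper, are also abundant in fetal hepatocytes.

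Depth was 42114489 to 50886469 counts per WT library and 36981439 to 42587815 per DKO library, and values below are counts normalized to the mean effective library size. Normalized counts of Vps13a ran from 1825 to 2109 in WT and from 607 to 1039 in DKO, while Vps13c, at 504 to 664 and 518 to 1088, does not check its label over the whole gene. All 12 erythroid markers were detected, Klf1 being the most abundant at 12312 in WT and 12795 in DKO on average, and so were all 14 hepatoblast markers, led by Afp at 305522 and 239876. The summed hepatoblast markers overlapped between the genotypes, at 797387 to 1081487 in WT and 249638 to 941797 in DKO. So did the erythroid sum, at 32939 to 37898 in WT and 29404 to 45716 in DKO, and the megakaryocyte sum, at 58654 to 69231 and 41605 to 120194. At an edgeR adjusted p under 0.05, 2 of the 12 erythroid markers rose and 1 of the 8 megakaryocyte markers fell. Of 11 marker lists, 2 had every DKO library above every WT library and 6 had every DKO library below. The former were mesenchyme, led by Col1a1, with sums of 2041 to 5769 in WT and 12996 to 45108 in DKO, and neural, led by Nefl, with 161 to 275 and 560 to 3225. The latter included early progenitor (led by Cd34), with 38990 to 48050 in WT and 20164 to 26568 in DKO, and neutrophil and myeloid (led by Mpo), with 101833 to 132976 and 5332 to 44975. The remaining 4 sums, led by Vcam1 (macrophage), Cpa3 (mast cell), Pecam1 (endothelial) and Ptprc (lymphoid), moved the same way. Of their tested genes, 1 of 8, 1 of 3, 2 of 8 and 1 of 5, in that order, fell at an edgeR adjusted p under 0.05. Such a sum can rest mainly on its leading gene: Ptprc averaged 3674 in WT, where the lymphoid sum ran from 2863 to 4862. The sexes were uneven, since Xist reached at most 30.1 in WT and was 27043, 18029, 62.3 and 21393 in DKO replicates 1 to 4. The Y-linked Ddx3y was 2911 to 3354 in WT and 41.0, 10.5, 2516 and 9.40 in DKO. By these transcripts all WT libraries and DKO replicate 3 looked male, and DKO replicates 1, 2 and 4 looked female. Sex was thus nearly confounded with genotype, and its part in the differences below was not tested.

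The 300-base promoter windows of the best known MTF1 targets were set beside that of Tmem163 to show which of them carry the letters of the metal response element. Each RefSeq window (GRCm38.p6) runs from 250 bases before to 50 bases after the annotated start, read 5′ to 3′ on the gene's strand, and capitals mark matches to TGCACNC or TGCGCNC on either strand.
Mt1 (chr8:94178839-94179138, plus strand): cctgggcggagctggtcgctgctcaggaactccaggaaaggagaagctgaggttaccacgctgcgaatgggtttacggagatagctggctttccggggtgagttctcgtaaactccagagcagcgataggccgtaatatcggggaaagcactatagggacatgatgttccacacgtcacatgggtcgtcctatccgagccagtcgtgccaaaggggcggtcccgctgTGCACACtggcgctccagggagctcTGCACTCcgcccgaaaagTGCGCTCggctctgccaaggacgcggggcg
Mt2 (chr8:94172368-94172667, plus strand): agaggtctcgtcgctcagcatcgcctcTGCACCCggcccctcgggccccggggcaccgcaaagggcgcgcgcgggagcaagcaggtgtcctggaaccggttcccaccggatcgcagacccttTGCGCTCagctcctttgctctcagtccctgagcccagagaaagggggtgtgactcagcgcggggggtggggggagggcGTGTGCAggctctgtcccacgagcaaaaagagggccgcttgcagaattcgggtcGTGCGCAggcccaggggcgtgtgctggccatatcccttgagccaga
Slc30a1 (chr1:191906531-191906830, plus strand): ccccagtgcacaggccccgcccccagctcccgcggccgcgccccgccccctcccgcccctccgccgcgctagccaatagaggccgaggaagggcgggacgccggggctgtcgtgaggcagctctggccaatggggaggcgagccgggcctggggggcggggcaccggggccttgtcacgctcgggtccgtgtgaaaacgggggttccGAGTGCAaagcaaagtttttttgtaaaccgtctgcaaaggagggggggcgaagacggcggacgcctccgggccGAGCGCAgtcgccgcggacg
Tmem163 (chr1:127677972-127678271, minus strand): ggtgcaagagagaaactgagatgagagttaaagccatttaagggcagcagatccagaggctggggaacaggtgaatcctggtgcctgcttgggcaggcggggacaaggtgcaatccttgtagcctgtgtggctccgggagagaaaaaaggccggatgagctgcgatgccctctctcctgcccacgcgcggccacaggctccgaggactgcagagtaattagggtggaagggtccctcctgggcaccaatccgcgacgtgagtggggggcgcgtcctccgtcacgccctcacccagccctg

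The Mt2 window held 4 matches, the Mt1 window 3 and the Slc30a1 window 2, and the Tmem163 window held none. Counted from the start, the first base of the match lay at -23, 3 and 21 in Mt1, at -223, -128, -50 and 5 in Mt2, and at -43 and 31 in Slc30a1. Slc30a10 also had 3 matches, of which the pair at -233 and -232 overlap on opposite strands. Slc30a5 and 1 of the 2 windows of Slc39a8 had a single match each, and Mtf1 and both windows of Slc39a10 had none, so 6 of the 9 genes had a match. Over all 32851 windows of this length, 25.7% held at least 1 match, 7.11% at least 2 and 1.97% at least 3. A match is a run of letters and not a tested site. GENCODE places other Mt1 starts at 94179211 and 94179241 and another Mt2 start at 94172860, all past the end of these windows, and a protein-coding Tmem163 start at 127679548, before its window on the gene's strand, so the bases just before those starts were not searched.

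Tmem163 was nearly silent in WT and among the more abundant transcripts in DKO. The gene (ENSMUSG00000026347.13) spans chr1:127486546-127679548 on the minus strand of GRCm38. WT replicates 1 to 4 had 52.4, 68.0, 31.3 and 25.4 normalized counts. DKO replicates 1 to 4 had 12079, 12320, 14953 and 14717. No library of one genotype came near those of the other, and the DKO libraries stood close together. The means were 44.2 ± 19.6 for WT and 13517 ± 1528 for DKO (SD, n = 4 each), a ratio of 306 and a fitted log2 fold change of 8.26 with an SE of 0.30. The WT values rest on 29 to 79 counts per library. Per kilobase of exon, 14.6% of the genes tested had a lower level than Tmem163 in WT and 94.5% in DKO. In bulk samples, more cells of a type and more RNA per cell cannot be told apart. The neural marker sum moved with Tmem163 between genotypes. Within DKO replicates 1 to 4 it was 3225, 580, 560 and 727, and Tmem163 was lowest in replicate 1 and highest in replicate 3. Over the same replicates the erythroid sum was 31028, 29404, 45716 and 44781. The megakaryocyte sum was 47972, 41605, 95057 and 120194. Both of these sums overlapped between the genotypes. All 8 neural markers were detected, 2 of the 5 tested rose, and Sox2 was at 0 in every WT library. The part of neural, mesenchymal, erythroid or megakaryocyte cells in the Tmem163 count was not tested. DKO replicate 3, with Xist at 62.3 and the Y-linked Ddx3y at 2516 against 2911 to 3354 in WT, had a Tmem163 count of 14953, and the other DKO replicates, with Ddx3y at 41.0, 10.5 and 9.40, had 12079 to 14717. The part of sex in the Tmem163 difference was not tested.

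**Figure D1:**
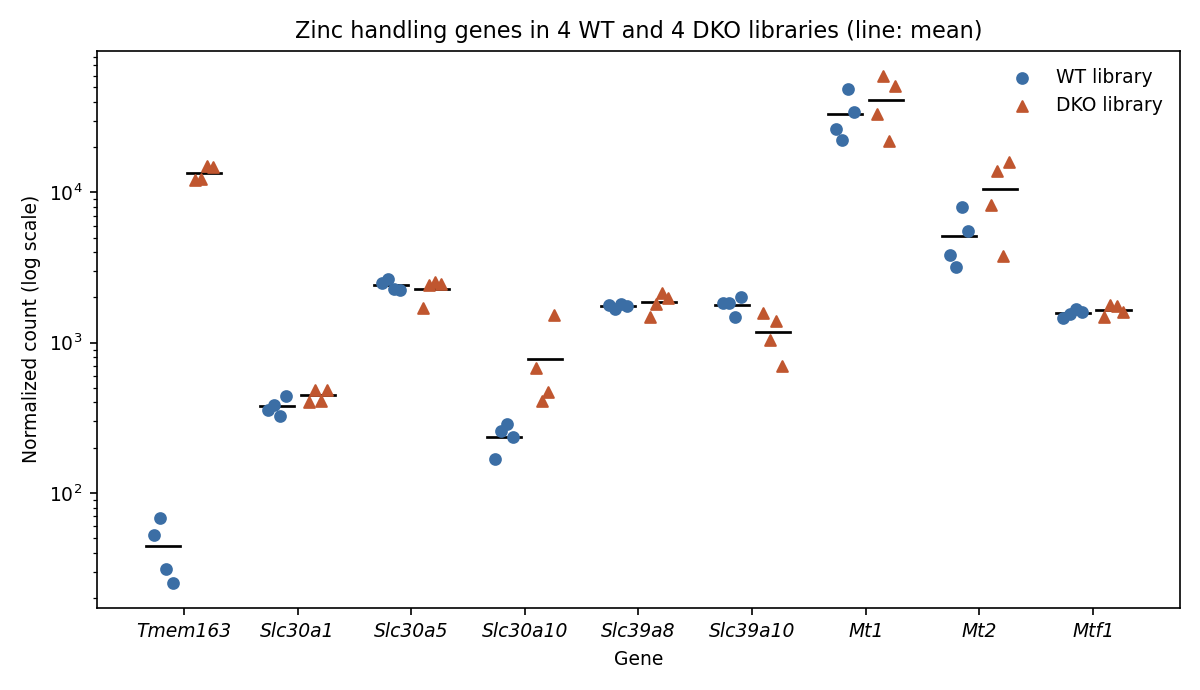
Normalized counts (log axis) of the 9 zinc handling genes in each of 4 WT libraries (circles) and 4 DKO libraries (triangles), with a line at each mean. Tmem163 stood at 25.4 to 68.0 in WT and 12079 to 14953 in DKO, while 7 of the 9 genes had overlapping libraries.

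Of the 9 genes, 2 had every DKO library above every WT library, Tmem163 and Slc30a10, and none had every DKO library below. Over all 17378 genes tested, 13.5% lay wholly above and 14.6% wholly below. The genes were picked on this contrast, and nothing is read from the count.

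Compared per length, Tmem163 went from near the foot to the head of the zinc transporter transcripts. Among 25 genes, the 10 of the Slc30 family, the 14 of the Slc39 family and Tmem163, it ranked 21 in WT at 10.3 ± 4.57 normalized counts per kilobase of exon (SD, n = 4) and 1 in DKO at 3149 ± 356. In DKO its libraries, at 2814 to 3484 per kilobase, were apart from those of Slc39a7, the next in order, at 1831 to 2217. Slc39a7 encodes the ZIP importer of the endoplasmic reticulum and Golgi and led the WT order at 2376 ± 128 per kilobase. In WT the libraries of Tmem163 overlapped those of its neighbours in the order, Slc30a3 above and Slc30a2 below. Tmem163 made up 0.79% ± 0.34 of the summed per-kilobase level of Tmem163 and the Slc30 family for WT and 71.5% ± 1.31 for DKO (SD, n = 4 each). The Slc30 family alone summed to 1296 ± 54.2 per kilobase for WT and 1254 ± 112 for DKO, with overlapping libraries. For the Slc39 family the sum was 5999 ± 325 in WT and 5037 ± 137 in DKO, and all DKO libraries fell short of all WT libraries. Among the 9 genes the WT order per kilobase was Mt1 (26629), Mt2 (8732), Slc30a5 (331), Slc39a10 (294), Slc39a8 (228), Mtf1 (177), Slc30a1 (72.0), Slc30a10 (40.7) and Tmem163 (10.3), and of neighbours in that order only Slc30a5 and Slc39a10 had overlapping libraries. The DKO order was Mt1 (33199), Mt2 (17824), Tmem163 (3149), Slc30a5 (312), Slc39a8 (242), Slc39a10 (194), Mtf1 (186), Slc30a10 (133) and Slc30a1 (85.0), and there only Tmem163 was apart from both of its neighbours. These sums and orders include the members chosen on this contrast and were not tested.

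**Figure D2:**
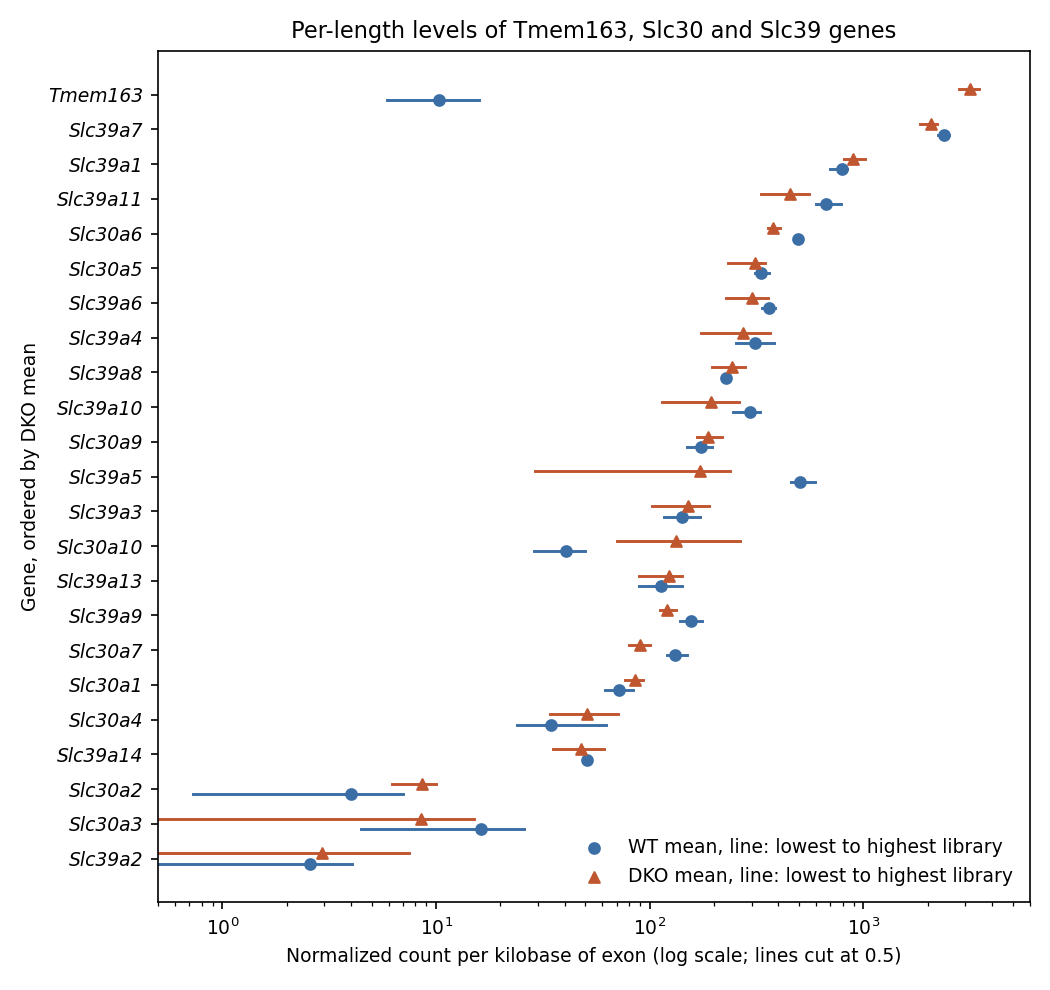
Normalized count per kilobase of exon (log axis) of Tmem163 and of each Slc30 and Slc39 gene above 0, as the WT mean (circles) and DKO mean (triangles) of 4 libraries with lines from the lowest to the highest library, cut at 0.5. Tmem163 lies at 10.3 in WT and at 3149 in DKO, above Slc39a7 at 2068.

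Of the 3 ZnT exporters, Slc30a10 was the only one whose libraries were apart between the genotypes. Slc30a1, the exporter of the plasma membrane and an MTF1 target (ENSMUSG00000037434.7, chr1:191906767-191913247, plus strand), had 359, 386, 325 and 439 normalized counts in WT replicates 1 to 4 and 401, 482, 410 and 488 in DKO replicates 1 to 4. The ranges overlapped, and the fitted log2 fold change was 0.24 with an SE of 0.17. Slc30a5, which works with Slc30a6 to load zinc into the secretory pathway (ENSMUSG00000021629.10, chr13:100802648-100833427, minus strand), had 2503, 2634, 2277 and 2257 in WT and 1701, 2426, 2532 and 2449 in DKO. Only DKO replicate 1 lay below the WT range, and the log2 fold change was -0.09 with an SE of 0.13.

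Slc30a10 is placed among the zinc exporters by sequence and is known mainly as a manganese exporter of the liver and brain (ENSMUSG00000026614.6, chr1:185454848-185468762, plus strand). Its WT libraries had 168, 258, 289 and 234 normalized counts and its DKO libraries 678, 408, 470 and 1539. All DKO libraries exceeded all WT libraries, and DKO replicate 4 was more than 2 times any other. The means were 237 ± 51.7 and 774 ± 523 (SD, n = 4 each), with a log2 fold change of 1.70 (SE 0.41) that was 1.13 without DKO replicate 4. The hepatoblast sum of that library, 841302, lay inside the WT range. Over DKO replicates 1 to 4 the megakaryocyte sum was 47972, 41605, 95057 and 120194, against at most 69231 in WT. The mesenchyme sum was 45108, 12996, 14366 and 21475, against at most 5769. The part of these cell types in the Slc30a10 count was not tested.

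Both ZIP importers were moderately abundant in both genotypes. Slc39a8, an importer of zinc, manganese and iron known to be high in early erythroid cells (ENSMUSG00000053897.15, chr3:135825279-135888572, plus strand), had 1774, 1674, 1797 and 1758 normalized counts in the WT libraries and 1493, 1813, 2127 and 1975 in DKO. DKO values fell on both sides of the narrow WT range, and the log2 fold change was 0.08 with an SE of 0.12. Slc39a10, an importer of the plasma membrane (ENSMUSG00000025986.6, chr1:46807544-46892852, minus strand), had 1836, 1831, 1488 and 2002 in WT and 1588, 1047, 1403 and 697 in DKO. The genotypes overlapped through WT replicate 3 and DKO replicate 1. Its means were 1789 ± 216 and 1184 ± 394 (SD, n = 4 each), with a log2 fold change of -0.60 (SE 0.23). DKO replicate 4, with the lowest Slc39a10, was the library with the highest Slc30a10. The early progenitor sum also stood lower in DKO, at 20927, 26568, 24332 and 20164 in replicates 1 to 4 against 38990 to 48050 in WT. DKO replicates 1 and 4, with the lowest of these sums, held the highest and the lowest DKO count of Slc39a10. The part of early progenitors in the Slc39a10 level was not tested.

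Mtf1 transcripts overlapped between the genotypes. The gene (ENSMUSG00000028890.13, chr4:124802104-124849800, plus strand) had 1460, 1547, 1681 and 1609 normalized counts in the WT libraries and 1484, 1789, 1750 and 1589 in DKO, with a log2 fold change of 0.07 and an SE of 0.10. Its transcript count does not measure the activity of a protein that zinc switches on.

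The metallothioneins were by far the most abundant of the 9 genes per length in WT, and they varied widely among libraries. Mt1 (ENSMUSG00000031765.8, chr8:94179082-94180327, plus strand) had 26527, 22484, 49156 and 34552 normalized counts in WT replicates 1 to 4. DKO replicates 1 to 4 had 33048, 59484, 21861 and 51069. DKO held both the highest and the lowest library, and the log2 fold change was 0.32 with an SE of 0.32.

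Mt2 (ENSMUSG00000031762.7, chr8:94172664-94173568, plus strand) lies just before Mt1 on the same strand. It had 3826, 3173, 7979 and 5559 normalized counts in the WT libraries and 8270, 13841, 3774 and 16038 in DKO. Here 3 DKO libraries lay above all WT libraries and DKO replicate 3 lay among the lowest. The means were 5135 ± 2147 and 10480.5 ± 5539 (SD, n = 4 each), with a log2 fold change of 1.03 (SE 0.43).

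The balance of the pair was apart between genotypes. The ratio of Mt2 to Mt1 normalized counts was 0.144, 0.141, 0.162 and 0.161 in WT and 0.250, 0.233, 0.173 and 0.314 in DKO, so that all DKO libraries exceeded all WT libraries. This ratio was formed after the counts were seen and was not tested. Mt1, Mt2 and the hepatoblast sum were all lowest among DKO libraries in replicate 3, where the sum was 249638, and all highest among WT libraries in replicate 3, where it was 1081487. None of the 14 hepatoblast markers passed the test in either direction with edgeR. The share of metallothionein RNA that came from hepatoblasts was not tested.

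**Figure D3:**
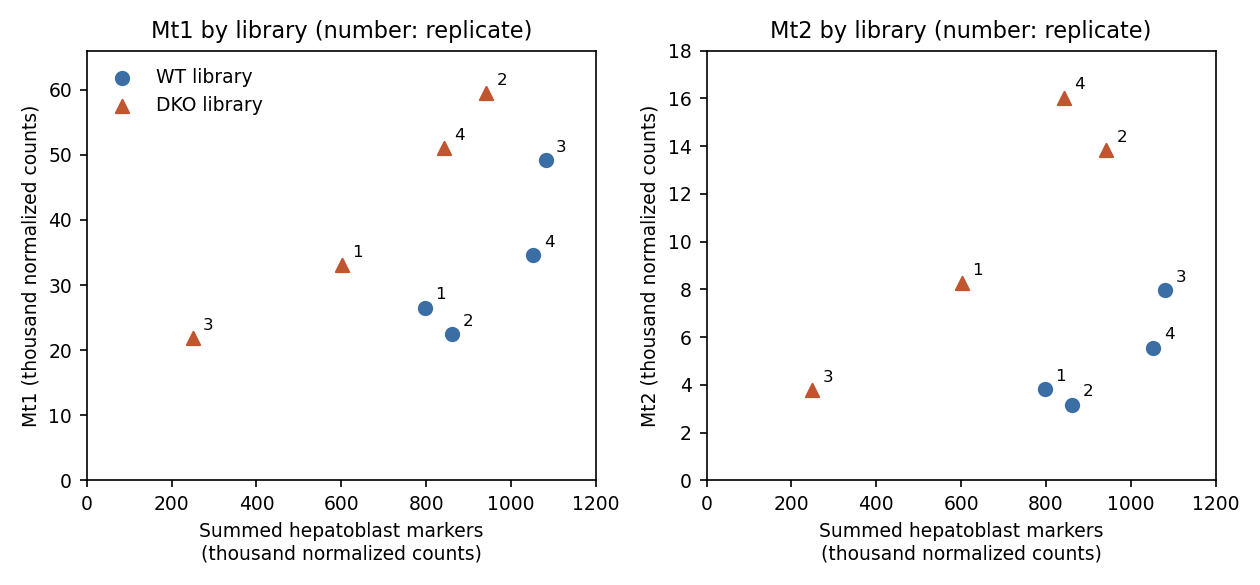
Normalized counts of Mt1 (left) and Mt2 (right), against the summed counts of 14 hepatoblast markers (both axes scaled down by 1000) for 4 WT libraries (circles) and 4 DKO libraries (triangles), each numbered by replicate. DKO replicate 3 has the lowest marker sum, 249638, and the lowest Mt1 and Mt2 of the DKO libraries.

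The other genes of both transporter families were then tested. They are what remained once the members, Slc30a10 among them, had been picked with their counts known, so the absence of a rise below is partly fixed by that choice. Of the 19 other Slc30 and Slc39 genes, 16 had enough counts, and 5 of these fell in DKO by edgeR's quasi-likelihood test with Benjamini-Hochberg adjustment over all genes. None rose, by edgeR, by DESeq2 or at an unadjusted p under 0.05. Over all genes tested, 10.8% fell and 10.7% rose (1878 and 1867 genes; 1242 and 2492 with upper-quartile scaling). The median log2 fold change of the 16 genes was -0.20 and that of all genes 0.03. The count of 5 was 1, 0 and 1 without WT replicate 1, 2 or 4, 3 without DKO replicate 1 or 2, 2 without DKO replicate 4, and 1 with upper-quartile scaling, while each of the 5 genes stayed lower in every alternative. Over all genes the number that fell was 898, 1050 and 957 without WT replicate 1, 2 or 4. It was 2012 and 1707 without DKO replicate 1 or 2, and 1513 without DKO replicate 4.

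Slc39a5, an importer of the liver and pancreas, had the widest difference of the 5. It had 1078, 1063, 1021 and 1324 normalized counts in the WT libraries and 527, 501, 64.7 and 429 in DKO, with a log2 fold change of -1.56 (SE 0.49, edgeR adjusted p = 0.0491). The lowest value came from DKO replicate 3, the library with the lowest hepatoblast sum. In DKO replicates 2 and 4, with 501 and 429, that sum was 941797 and 841302, inside the WT range. The part of hepatoblasts in the Slc39a5 level was not tested. In 14 of 16 alternatives Slc39a5 missed the threshold. Slc39a11, an importer that has been placed at the Golgi, had 2152, 2199, 2024 and 2626 in WT and 1114, 1876, 1570 and 1553 in DKO (log2 fold change -0.56, SE 0.16, edgeR adjusted p = 0.0325). Slc39a9, also of the Golgi, had 1591, 1555, 1406 and 1785 in WT and 1187, 1251, 1344 and 1131 in DKO (log2 fold change -0.37, SE 0.11, edgeR adjusted p = 0.0384). Of 16 alternatives, Slc39a9 missed the threshold in 9 and Slc39a11 in 7.

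Both ZnT genes that fell load zinc into the secretory pathway. Slc30a6, the partner of Slc30a5, had 1481, 1554, 1451 and 1579 normalized counts in the WT libraries and 1250, 1098, 1198 and 1117 in DKO, with no overlap (log2 fold change -0.38, SE 0.09, edgeR adjusted p = 0.0203). Slc30a7 had 1398, 1663, 1418 and 1331 in WT and 931, 1109, 892 and 1075 in DKO, again with no overlap (log2 fold change -0.54, SE 0.12, edgeR adjusted p = 0.0141). Over the same 16 alternatives Slc30a6 missed the threshold in 5 and Slc30a7 in 1. Slc30a8 and Slc39a12 had no counts in any library, and Slc39a2 had too few to test. On the annotation Ankrd52, with means of 431 counts in WT and 331 in DKO, covers 5299 bases of Slc39a5, the span of Slc39a9 overlaps that of the abundant Erh, and that of Slc39a11 overlaps Cog1 and Sstr2, on the opposite strand in each case. Whether counting used strand was not given in the sources used here, so reads of such pairs may be mixed.

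Other genes of zinc and copper handling moved in both directions. Of 53 genes in 8 lists outside the 9, the 19 transporters included, 48 were tested, and 8 rose and 6 fell, where 10.7% and 10.8% of all genes did so. The lists, too, were chosen with earlier results of these data known, so nothing is concluded from how many of their genes passed. Among 5 further genes known as MTF1 targets, 2 rose, none fell, and all 5 fitted fold changes were above 0, as were 9147 of the 17378 over all genes. Selenow, which encodes a small selenoprotein, had 11336, 11801, 13754 and 11467 normalized counts in the WT libraries and 22797, 20233, 22099 and 24273 in DKO, with no overlap (log2 fold change 0.89, SE 0.09, edgeR adjusted p = 0.000935). Pgf, a growth factor of the VEGF family, had 8.38, 6.02, 46.9 and 26.2 in WT and 352, 41.8, 42.7 and 471 in DKO (log2 fold change 3.36, SE 0.97, edgeR adjusted p = 0.0362). DKO replicates 2 and 3 of Pgf lay inside the WT range, and the high ones, DKO replicates 1 and 4, were also highest for the mesenchyme sum, at 45108 and 21475, whose part was not tested. Gclc, Csrp1 and Ndrg1 did not pass, with log2 fold changes of 0.16, 0.29 and 0.01. Of the other metallothioneins Mt3 had at most 14.7 counts and did not pass, and Mt4 had too few to test.

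Of 3 proteins known to bind TMEM163, only the gene of the purinergic receptor P2X3 passed. P2rx3 had 5.24, 6.02, 6.95 and 11.4 normalized counts in the WT libraries and 38.9, 54.6, 86.7 and 35.5 in DKO (log2 fold change 2.84, SE 0.54, edgeR adjusted p = 0.0079). All DKO libraries exceeded all WT libraries, at a low level. Its end overlaps by 229 bases that of Ssrp1 on the opposite strand, which had 17852 to 24661 counts. Mcoln1, a lysosomal channel, had a log2 fold change of -0.10 (SE 0.13), and P2rx4 had -0.35 (SE 0.18).

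In the copper list, 2 of 11 genes rose and 1 fell. Slc31a1, the main copper importer, had 4356, 4541, 3817 and 5496 normalized counts in the WT libraries and 3123, 3369, 2736 and 3217 in DKO (log2 fold change -0.55, SE 0.12, edgeR adjusted p = 0.0127), and its span overlaps Cdc26 on the opposite strand, with 4010 to 5044 counts in all libraries. Cox17, the copper chaperone of cytochrome c oxidase, rose (log2 fold change 0.59, SE 0.09, edgeR adjusted p = 0.00331), as did Ccs, the chaperone of SOD1 (0.33, SE 0.08, edgeR adjusted p = 0.0235). Of 5 tested genes of zinc-dependent enzymes, Sod1 alone passed, with 13241 to 16882 in WT and 20067 to 22133 in DKO (log2 fold change 0.49, SE 0.09, edgeR adjusted p = 0.00653). Car1, Car2, Alad and Adh5 did not pass. Because glucocorticoids also raise metallothioneins, 7 genes known to answer to that hormone were read, and 2 rose and none fell. Sgk1, a kinase gene, had 224 to 335 in WT and 438 to 639 in DKO (log2 fold change 1.10, SE 0.20, edgeR adjusted p = 0.00719). Klf9 had 116 to 225 and 282 to 388 (log2 fold change 1.02, SE 0.26, edgeR adjusted p = 0.0232). The other 5 did not pass: Fkbp5, Dusp1, Tsc22d3 and Per1 had log2 fold changes of 0.01, -0.01, 0.38 and 0.37, and Zbtb16 had -0.53 (edgeR adjusted p = 0.0586), with all DKO libraries short of all WT libraries. Without WT replicate 1, 2 or 4, or without DKO replicate 4, the 8 genes that rose became 5 in each case, and the 6 that fell became 2, 1, 2 and 3. Calls over all genes shrank as well, in that order to 858, 1011, 948 and 1472 that rose and 898, 1050, 957 and 1513 that fell. Of the genes that rose, the calls lost over all alternatives were those of Ccs (6 of 16), Klf9 (5 of 16) and Pgf (6 of 15).

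**Figure D4:**
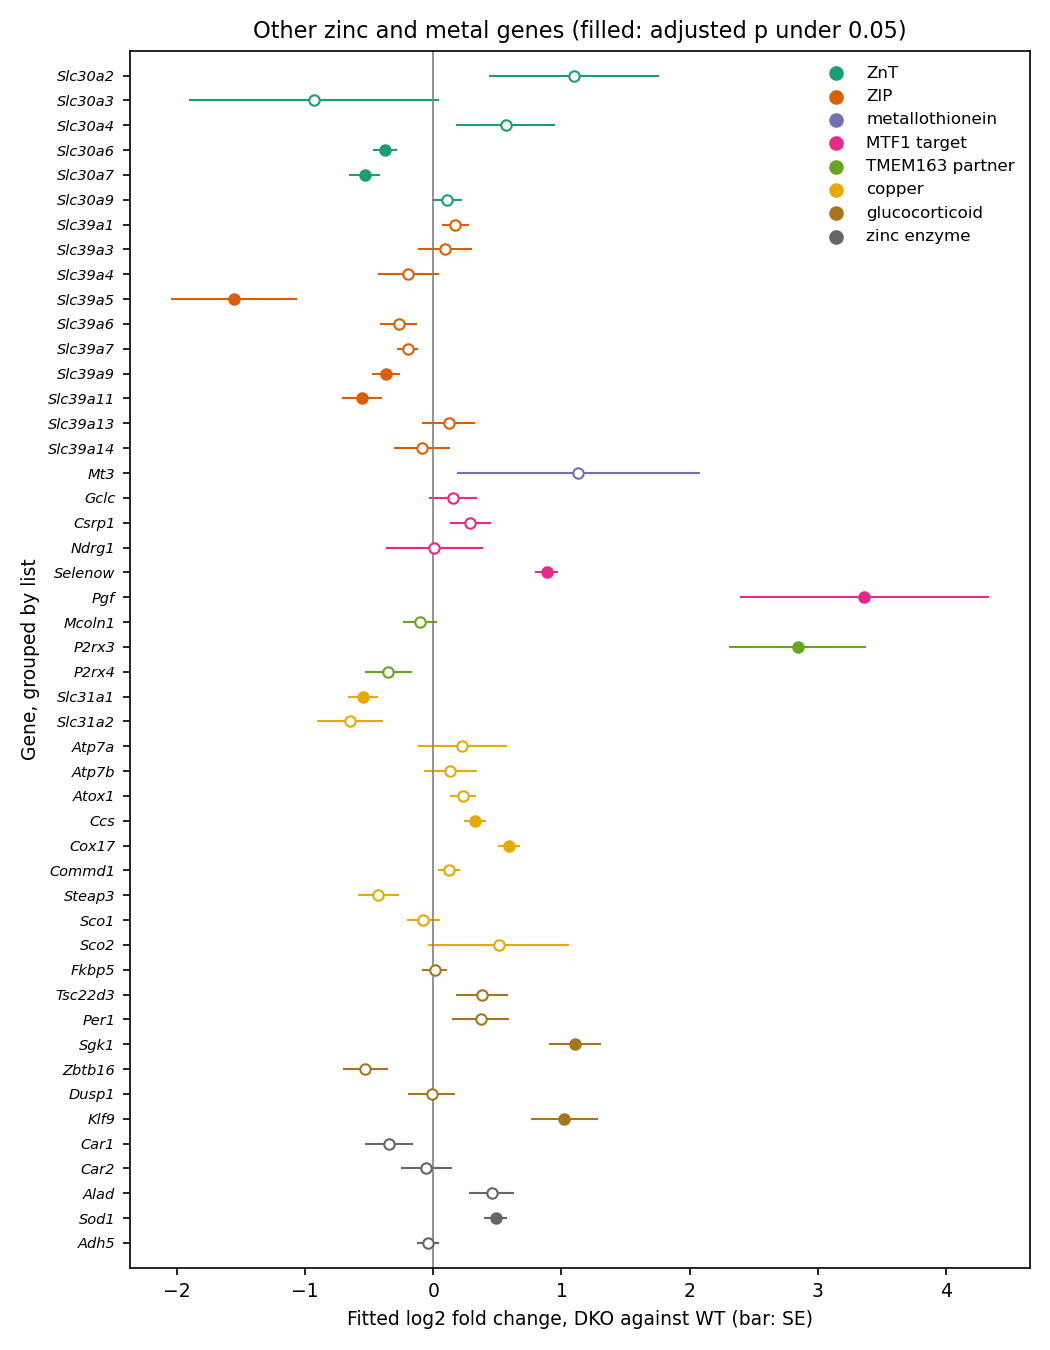
Fitted log2 fold change, DKO against WT, of 48 tested zinc and metal genes outside the 9, with bars for the SE, coloured by list and filled where the edgeR adjusted p was under 0.05. All 5 filled ZnT and ZIP genes lie below 0, and the filled genes of the other lists lie above 0 except Slc31a1.

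Genes beside Tmem163 on chromosome 1 had fold changes far from its own. The nearest protein-coding genes are Nckap5 and Mgat5 on one side and Acmsd and Ccnt2 on the other. Mgat5, which overlaps the end of Tmem163 by 1791 bases on the opposite strand, ran from 754 to 970 normalized counts across WT and 530 to 880 in DKO (log2 fold change -0.42, SE 0.18, edgeR adjusted p = 0.12). These counts lie below those of Tmem163 in DKO and above those of Tmem163 in WT, so with the use of strand unknown the low WT level of Tmem163, and with it the ratio of 306, may hold reads of Mgat5. On the log2 scale Acmsd differed by -0.37 (edgeR adjusted p = 0.45), Ccnt2 by -0.11 (edgeR adjusted p = 0.463) and Nckap5 by 0.12 (edgeR adjusted p = 0.929). Within 1 Mb of Tmem163 the fitted log2 fold changes of 20 other tested genes ran from -1.16 to 0.87. Beside the Mt1 and Mt2 pair, Nup93, a nuclear pore gene, fell (log2 fold change -0.66, SE 0.10, edgeR adjusted p = 0.00385), and Slc12a3 had too few counts to test. Mt2 overlaps the antisense gene Gm45774, which had 82.6 to 150 counts in WT and 122 to 366 in DKO.

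**Figure D5:**
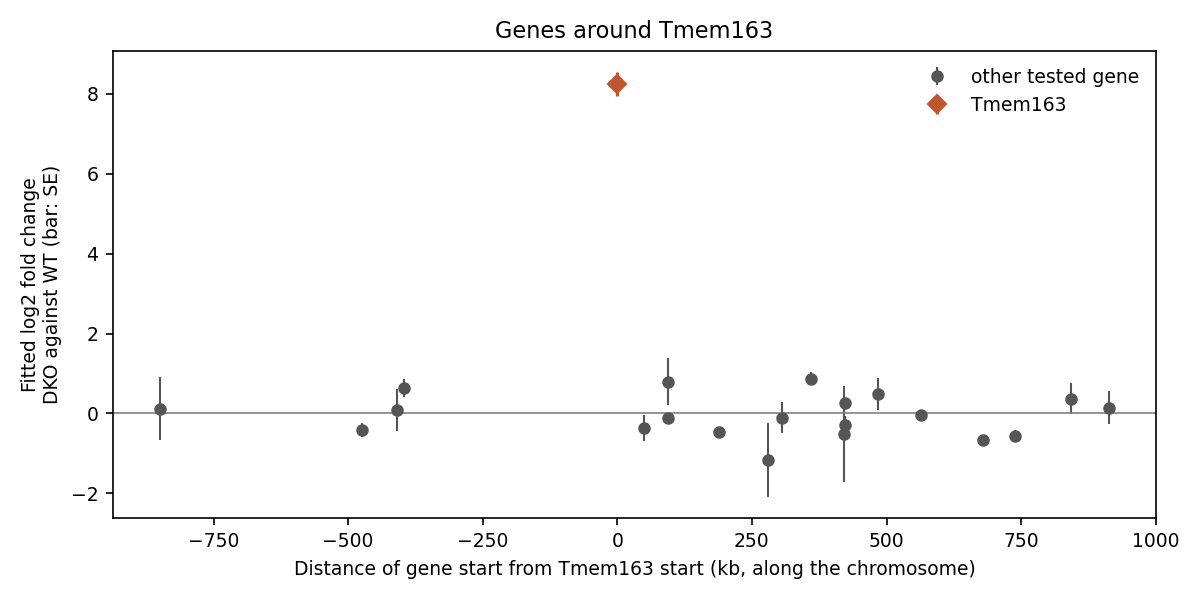
Fitted log2 fold change, DKO against WT, with bars for the SE, of Tmem163 (diamond) and 20 other tested genes (circles) against the distance of their start from that of Tmem163 in kilobases. Tmem163 stands at 8.26, and the others lie between -1.16 and 0.87.

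Likeness of profile was measured over the 8 libraries as the root mean square difference of standardized log2 CPM, where 0 is identity. The 5 protein-coding genes nearest to Tmem163 were Emc9 (0.09), Chmp4b (0.09), Ifi27 (0.10), Hist1h3f (0.10) and Hist1h2bh (0.12). Their mean normalized counts in the WT libraries and DKO were 859 and 1730 for Emc9, a subunit of the ER membrane complex, 539 and 1039 for Chmp4b, a subunit of ESCRT-III, and 348 and 5857 for Ifi27, an interferon-stimulated gene. Hist1h3f had 22.4 and 370 and Hist1h2bh 55.4 and 596, and counts of such histone genes may be split among near-identical copies. All 5 varied little within each genotype beside the step between genotypes. The 5 nearest to Mt1 were Sdk1 (0.27), Acbd4 (0.28), Tgm1 (0.28), Hsd17b11 (0.31) and Mt2 (0.36), and none of the other 7 zinc handling genes was among them.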

How the data were processed

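S0 cells from E12.5 livers were measured by RNAseq (4 WT and 4 DKO libraries). Per the labels and the study's methods, the authors trimmed reads with fastp 0.21.0, mapped them with HISAT2 2.2.1 to mm10 (the build of GRCm38) and deposited whole-number counts per gene from StringTie 1.3.3b, neither normalized nor pooled. Groups came from the sample titles, and columns were matched to them by name. Of 52636 identifiers, 52489 matched a GENCODE symbol with the version ignored. edgeR 4.0.16 in R 4.3.3 was run on the deposited counts with filterByExpr, TMM and the robust quasi-likelihood test, WT against DKO, and p-values were adjusted over 17378 genes with a threshold of 0.05. SEs were taken from the fold change and the F statistic. Log2 CPM used a prior count of 2, and lengths are merged exons. The spread between libraries, not counting error, limits the precision of abundant genes at this depth. The fit was tested on simulated counts. No library was a second copy of another of its genotype by a chi-square test of counts. The members and lists were chosen with earlier results of these data known. The genes named are the members, list genes past the threshold, Vps13a, Vps13c, the 2 nearest protein-coding genes on each side of Tmem163 and of the Mt1 and Mt2 pair, the 5 genes of most similar profile, and the leading genes of marker lists that did not overlap. All other genes (Xist, Ddx3y, Klf1, Afp, Sox2, genes that overlap a named gene, and list genes that missed the threshold) were named after their values were seen. Alternatives were DESeq2 1.42.0, other scalings, other filters, protein-coding genes only, a replicate block, an added fold-change threshold and each library left out.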

Additional observations from a re-analysis of the deposited data

Results flagged for a closer look

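Slc30a5 in DKO replicate 1, at 1701 normalized counts, stood apart from the other DKO libraries, at 2426 to 2532, by a gap of 0.872 of the group's range, above Dixon's 95% critical value for 4 samples. The same library had the highest mesenchyme and neural marker sums, 45108 and 3225, and their part in the value was not tested. It was the single case among 46 groups of 4 that were checked, and chance flags about 1 group in 20.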

How the results depend on the processing

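Over the alternatives the log2 fold change of Tmem163 ran from 8.05 to 8.56 and that of Slc30a10 from 1.13 to 1.91. Mt2 ran from 0.76 to 1.32, Mt1 from 0.09 to 0.57 and Slc39a10 from -0.77 to -0.41. Of the 9 genes only Slc30a5, from -0.14 to 0.03, crossed 0. All shifts were below 1 SD between replicates. Leaving out 1 of 4 libraries can hardly exceed that limit, so nothing is read from it. Upper-quartile scaling moved the median of all genes from 0.03 to 0.14 on the log2 scale. With it 1 of the other zinc transporters fell, 2 of all listed zinc and metal genes fell and 1242 genes overall fell. With protein-coding genes only, 3 transporters fell. With a log2 fold change beyond 1 as well, 1 transporter fell, 4 listed genes rose and 1 fell, and 1076 genes overall rose and 423 fell. Over the libraries left out in turn, transporters that fell ran from 0 to 4, listed genes that rose from 5 to 8 and that fell from 1 to 8, and all genes that rose from 858 to 1915 and that fell from 898 to 2012.

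With the replicate block 1 transporter fell, 5 listed genes rose and 2 fell, and 1026 genes overall rose and 1083 fell. The replicate numbers were shared only as names: deviations of same-numbered libraries correlated at -0.10, 0.05, -0.03 and -0.01, and 0 WT libraries were closest to the DKO library of their own number. The cause of these lower counts was not tested. The 5 genes nearest to Tmem163 in profile were the same 5 among genes with at least 10 counts in every library. That filter leaves each distance unchanged, so the outcome was fixed once all 5 passed it. With TGCACNC alone 4 of the 9 genes, and with TGCGCNC alone 5, had a promoter match. At 29 to 79 counts, the WT level of Tmem163 is the least precise of the 9.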

Other observations

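Set against the hepatoblast markers, a scale chosen after the values were seen, Mt1 came to 33.3, 26.1, 45.5 and 32.8 normalized counts per 1000 counts of the summed markers in WT replicates 1 to 4 and to 55.0, 63.2, 87.6 and 60.7 in DKO replicates 1 to 4. On that scale Mt2 came to 4.80, 3.68, 7.38 and 5.28 in WT and to 13.8, 14.7, 15.1 and 19.1 in DKO. For both genes all DKO libraries exceeded all WT libraries, whereas their plain normalized counts overlapped. A low marker sum raises the values on this scale whatever the metallothionein count. That sum was 600846 and 249638 in DKO replicates 1 and 3, and at least 797387 in WT. By itself the scale cannot tell a rise of metallothionein RNA from a fall of the markers, nor show which cells the RNA came from. In DKO replicates 2 and 4 the marker sum, 941797 and 841302, lay inside the WT range. Plain counts of Mt1 there were 59484 and 51069, against at most 49156 in WT. For Mt2 they were 13841 and 16038, against at most 7979. DKO replicate 3, with the lowest plain counts of both genes among DKO libraries, had the highest Mt1 value on this scale. No test was made.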
